A study of Mus musculus with 4 samples.

Results

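The oxygen sensing genes of the hypoxia-inducible factor (HIF) pathway were followed in the hippocampus of mice after a fracture of the tibia. They were taken by symbol from the 29300 genes of the deposited count table, which held all 9 of them: the α subunits Hif1a and Epas1, the prolyl hydroxylases Egln1, Egln2 and Egln3, the ubiquitin ligase subunit Vhl, and the hypoxia-induced genes Vegfa, Adm and Bhlhe40. The 2 PND mice, a model of perioperative neurocognitive disorder, received isoflurane anesthesia, tramadol and an open tibial fracture fixed with an intramedullary nail. The 2 control mice, labelled sham, were given isoflurane and tramadol but were not operated on. All 4 were male wild-type C57BL/6 mice of 7 to 8 months, and the hippocampus was taken on day 1, with 1 library made from each mouse. Both groups carried the anesthetic and the analgesic, so the comparison concerned the operation on top of them.

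HIF is a transcription factor made of an oxygen-labile α subunit and a stable β subunit (Arnt, or Arnt2 in neurons). While oxygen is present, the prolyl hydroxylases hydroxylate the α subunit, VHL recognizes the hydroxylated protein, and the proteasome degrades it. When oxygen falls, hydroxylation slows, the α subunit accumulates and the dimer activates genes of glycolysis, vessel growth and the feedback on HIF itself. In brain, Epas1 is abundant in endothelial cells and astrocytes, whereas Hif1a is expressed broadly. The main control of HIF lies in the stability of its α protein, which was not measured here: all values below are levels of mRNA.

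The libraries held 15763432 to 18573386 counts, and 17144 genes entered the edgeR quasi-likelihood test, with adjusted p-values over all of them. A gene is said to have risen or fallen where its adjusted p was under 0.05, and is called a DEG where its fold change was in addition at least 1.5 or at most 0.67. Levels are given as CPM, the counts scaled to a common library size, and changes as log2 fold change (PND over control) with the standard error (SE) of the fit. With 2 mice against 2, an exact permutation test of a single value cannot give a two-sided p below 0.333, so the spread was estimated over all genes. The 6 hippocampal markers were detected in every mouse (summed level 948.5 to 1083 CPM), and 2 of them rose and 2 fell. The summed choroid plexus markers were 122.5 and 5343 CPM in the control mice against 2001 and 3403 CPM in the PND mice, so control 1 stood apart. PND 2 stood apart in the summed endothelial (337.3 against 227.9 to 246.6 CPM), pericyte (311.6 against 183.9 to 218.7 CPM) and oligodendrocyte markers (3733 against 5081 to 5869 CPM). The summed astrocyte, endothelial and pericyte markers lay above the control values in both PND mice, those of neurons lay below them, and the part of these markers in the results was not tested. In bulk tissue, fewer cells of a type and less RNA per cell cannot be told apart.

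Of the 9 genes, Hif1a and Vegfa rose, Egln2 fell and the other 6 did not pass the test. The share past the test was thus 33.3%, against 26.0% of all genes tested (13.1% higher and 12.8% lower). Hif1a and Egln2 were DEGs, in a background of 6.75% higher and 2.25% lower DEGs. The median log2 fold change of the 9 genes was 0.18, beside 0.01 over all genes tested. Both PND mice lay above both control mice in 5 of the 9 genes and below them in 1, while 33.2% of all genes tested lay above and 32.2% below. The number of all genes past the test was 4450, and it was 2318 without control 2 and 2889 without PND 2. When a trend of fold change with transcript length and GC content was removed, as described further on, none of the 3 passed the test. Their log2 fold changes were then 0.20 for Hif1a, −0.32 for Egln2 and 0.50 for Vegfa. The removal takes out any change that follows length or GC content, technical or not.

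**Figure D1:**
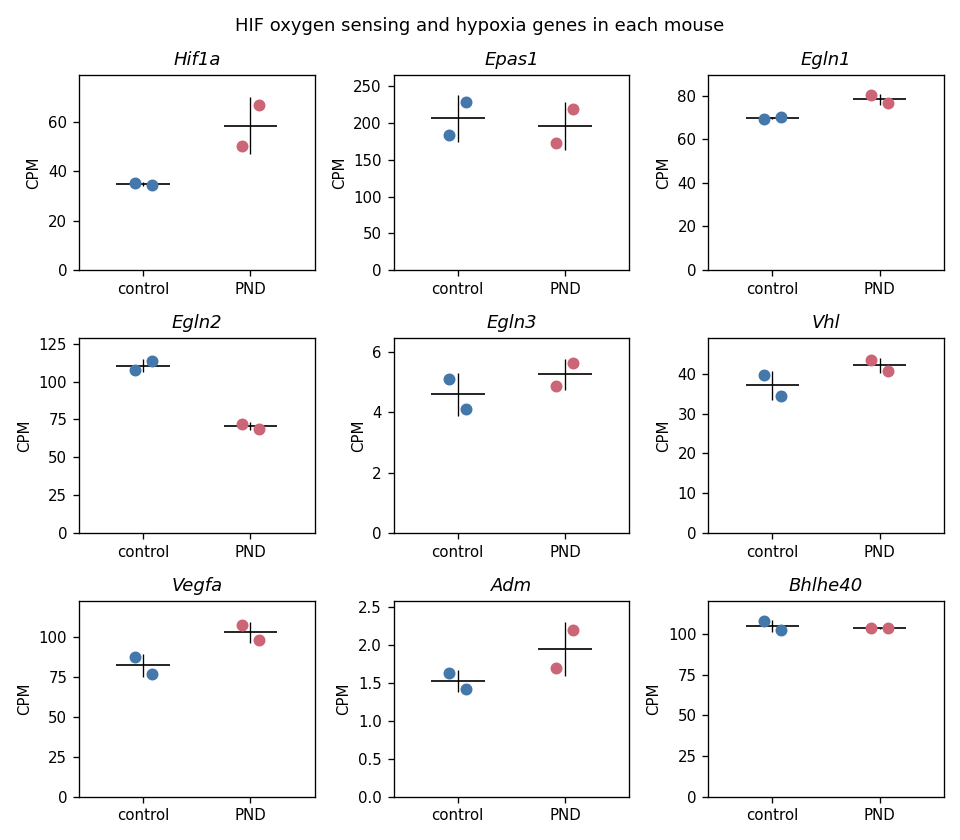
Level of each of the 9 genes in CPM (vertical axis, starting at 0) in each control and PND mouse, shown as points, with the group means as horizontal lines and the SD as vertical lines. The groups stand apart for Hif1a (34.3 and 35.4 against 50.3 and 66.7 CPM) and Egln2 (107 and 113 against 72.3 and 68.6 CPM) and overlap for Epas1, Egln3 and Bhlhe40.

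Hif1a encodes the oxygen-regulated subunit of HIF-1 and was the member with the largest rise before the length and GC correction. Its gene (ENSMUSG00000021109) lies on the forward strand of chromosome 12, from 73901375 to 73947530 of mm10. It held 610 and 627 counts in the control mice against 802 and 1126 counts in the PND mice, or 35.4 and 34.3 CPM against 50.3 and 66.7 CPM. Both PND mice were above both control mice, and the PND mice differed from each other more than the control mice did (58.5 ± 11.6 CPM against 34.9 ± 0.784 CPM, mean ± SD, n = 2 each). This was a 1.68-fold rise, or 0.75 on the log2 scale (SE 0.14, 95% interval 0.42 to 1.08), with an adjusted p of 0.012 (edgeR). It was 0.54 without PND 2, under the DEG threshold, and 0.93 without PND 1. The length and GC correction moved it to 0.20, which ended the call. Vegfa, Adm, Egln1 and Egln3 then had larger values than Hif1a. A share of 1.29% of its transcript sequence also occurred in Gm49321, with which it overlaps on the same strand, and 330 nt of its exons overlap Gm15283 on the opposite strand. Reads of these stretches could belong to either gene, the latter if counting ignored strand. PND 2, with the higher Hif1a level, was also the mouse that stood apart in the endothelial, pericyte and oligodendrocyte markers, whose part in the Hif1a value was not tested.

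Promoter sequence is shown for the 3 genes that passed the test, because HIF binds a response element with the core letters ACGTG or GCGTG, and these letters can be read directly in each window. The windows are the 250 bases before a RefSeq start site (GRCm38.p6), of which 7 of the 9 genes had at least 1. ACGTG and GCGTG were searched on both strands and matches are in capitals. Where matches overlap on both strands, as in the palindrome of the Hif1a window, both were counted. At least 1 match was found in 38.6% of all 32851 mouse windows (ACGTG in 16.6%, GCGTG in 28.2%), and in 7 of the 9 windows of the 7 genes. The Hif1a window, chr12:73907617-73907866 on the forward strand, lies inside the span of the gene and held 3 ACGTG matches, of which 2 form the palindrome. A match describes the letters only.
Hif1a: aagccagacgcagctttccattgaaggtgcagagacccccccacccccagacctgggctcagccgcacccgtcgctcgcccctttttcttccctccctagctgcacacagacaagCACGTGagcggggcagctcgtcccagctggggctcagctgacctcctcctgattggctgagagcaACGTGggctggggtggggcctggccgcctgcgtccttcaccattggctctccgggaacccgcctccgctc

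Epas1 encodes the α subunit of HIF-2 and was the more abundant of the α transcripts in every mouse. Its gene (ENSMUSG00000024140) spans 86753907 to 86833410 of chromosome 17, forward strand. The level was 184 and 228 CPM in the control mice against 172 and 219 CPM in the PND mice. The groups overlapped, and within each group the mice differed by more than the group means did (206 ± 31.4 CPM against 196 ± 33.1 CPM, n = 2 each). The log2 fold change of −0.07 (SE 0.14, 95% interval −0.41 to 0.26, adjusted p = 0.74, edgeR) turned to 0.09 without control 2 and to 0.08 without PND 1. The mouse with the lower Epas1 level in each group was also the one with the lower choroid plexus sum, whose part was not tested.

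Set against each other per kilobase of exon, Epas1 exceeded Hif1a by less in the PND mice than in the control mice. The ratio of Epas1 to Hif1a was 5.48 and 7.02 in the control mice against 3.62 and 3.47 in the PND mice (6.25 ± 1.09 against 3.54 ± 0.107, mean ± SD, n = 2 each). The groups did not overlap, and Epas1 remained the more abundant transcript in all 4 mice. These ratios were not corrected for length and GC content, and with that correction the log2 fold changes were 0.20 for Hif1a and 0.02 for Epas1, much closer to each other than the uncorrected 0.75 and −0.07.

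Egln2 (PHD1), a nuclear prolyl hydroxylase, fell. Its gene (ENSMUSG00000058709) lies on the reverse strand of chromosome 7, from 27158658 to 27166802. It held 1851 and 2073 counts in the control mice against 1153 and 1158 counts in the PND mice, or 107 and 113 CPM against 72.3 and 68.6 CPM. Both PND mice were far below both control mice and close to each other (70.5 ± 2.61 CPM against 110 ± 4.21 CPM, n = 2 each). The log2 fold change was −0.65 (SE 0.07, 95% interval −0.82 to −0.48), or 0.638 of the control level, with an adjusted p of 0.0045 (edgeR). With any 1 mouse left out it lay between −0.70 and −0.60, and the length and GC correction moved it to −0.32 and ended the call (adjusted p = 0.073, the highest over its alternatives). The promoter window at its gene start, chr7:27166803-27167052 on the reverse strand, held 4 matches, 3 of GCGTG and 1 of ACGTG, the most among the 9 windows.
Egln2: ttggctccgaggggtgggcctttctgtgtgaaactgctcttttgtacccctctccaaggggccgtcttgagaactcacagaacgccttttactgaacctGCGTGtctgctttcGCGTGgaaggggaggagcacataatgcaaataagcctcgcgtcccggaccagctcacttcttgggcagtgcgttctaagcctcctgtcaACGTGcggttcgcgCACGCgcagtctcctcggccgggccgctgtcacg

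Egln1 (PHD2) is the hydroxylase that sets HIF-1α levels in most cells. Its gene (ENSMUSG00000031987) lies on chromosome 8, from 124908587 to 124949324 of the reverse strand. Its level was 69.3 and 70.2 CPM in the control mice against 80.1 and 76.6 CPM in the PND mice (69.7 ± 0.662 against 78.3 ± 2.45 CPM, n = 2 each). Both PND mice were above both control mice, but the difference did not pass the test (log2 fold change 0.17, SE 0.07, 95% interval 0.00 to 0.33, adjusted p = 0.12, edgeR). With the length and GC correction the value was 0.38, and the adjusted p of 0.058 still missed the threshold, in a range of 0.0089 to 0.39 over all alternatives, the lowest of which came with that correction and a further term for the replicate number.

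Egln3 (PHD3), the hydroxylase best known as a HIF target itself, was rare. The gene (ENSMUSG00000035105) spans 54178981 to 54203860 of chromosome 12, reverse strand. It held 88 and 75 counts in the control mice against 78 and 95 counts in the PND mice, and the groups overlapped. Its log2 fold change of 0.20 (SE 0.22, 95% interval −0.34 to 0.73, adjusted p = 0.56, edgeR) left room for a rise or a fall at this depth. The value was 0.36 without control 1 and 0.04 without control 2.

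The summed hydroxylase transcripts were 59.6 and 61.6 CPM per kilobase in the control mice against 49.9 and 47.9 CPM per kilobase in the PND mice. Both PND mice were below both control mice, without a correction for length and GC content. With the corrected fold changes (0.38 for Egln1, −0.32 for Egln2 and 0.25 for Egln3 on the log2 scale) applied to the control mean of 60.6 CPM per kilobase, the sum was 58.8, so that most of the difference in the sum went with the correction. Uncorrected, the ratio of Egln1 to Egln2 was 0.502 and 0.482 in the control mice against 0.863 and 0.870 in the PND mice (0.492 ± 0.0141 against 0.866 ± 0.00498, n = 2 each). Egln2 thus gave 64.4% and 65.8% of the hydroxylase transcripts in the control mice against 51.7% and 51.1% in the PND mice, while Egln3 gave at most 4.41% in all 4.

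**Figure D2:**
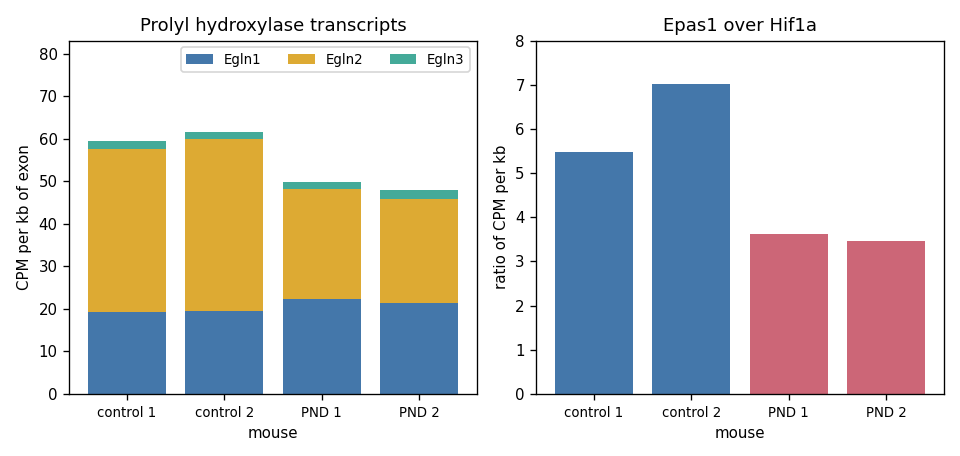
Left, stacked bars of Egln1, Egln2 and Egln3 in CPM per kilobase of exon in each mouse. Right, bars of the ratio of Epas1 to Hif1a per kilobase in each mouse. The Egln2 segment is smaller in both PND mice, with the sum at 49.9 and 47.9 against 59.6 and 61.6, and the ratio is lower (3.62 and 3.47 against 5.48 and 7.02). No value here is corrected for length and GC content, and with the corrected fold changes the PND sum was 58.8 beside a control mean of 60.6.

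Vhl, the substrate-recognition subunit of the ligase that marks hydroxylated HIF-α for degradation, was measured at 39.6 and 34.5 CPM in the control mice against 43.4 and 40.7 CPM in the PND mice. The gene (ENSMUSG00000033933) spans 113623959 to 113631633 of chromosome 6, forward strand. Both PND mice were above both control mice by a margin smaller than the difference between the control mice. Vhl did not pass the test, at a log2 fold change of 0.18 (SE 0.10, 95% interval −0.05 to 0.42) with an adjusted p of 0.22 (edgeR). This value was 0.29 without control 1 and 0.09 without control 2.

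Vegfa encodes the main growth factor of blood vessels, a classical HIF target that astrocytes and neurons also express. Its gene (ENSMUSG00000023951) lies on the reverse strand of chromosome 17, from 46016993 to 46032369. It held 1506 and 1413 counts in the control mice against 1720 and 1663 counts in the PND mice, or 87.4 and 77.3 CPM against 107.9 and 98.5 CPM. Both PND mice were above both control mice (103.2 ± 6.59 against 82.4 ± 7.16 CPM, n = 2 each). Vegfa had a log2 fold change of 0.33 (SE 0.09, 95% interval 0.12 to 0.54), a 1.25-fold rise under the DEG threshold, with an adjusted p of 0.038 (edgeR). The call was lost without control 2 (0.24, adjusted p = 0.15) and without PND 1 (0.25, adjusted p = 0.12), in a range of adjusted p of 0.0030 to 0.15 over all alternatives. Beside this, the summed astrocyte markers were 3557 and 3305 CPM in the control mice against 4105 and 3883 CPM in the PND mice, with 3 of 6 markers past the test upwards and 1 downwards. Their part in the Vegfa value was not tested. The window before its gene start, chr17:46032378-46032627 on the reverse strand, held no match, which says only that these letters are not in this window. A window before another start inside the gene held 2.
Vegfa: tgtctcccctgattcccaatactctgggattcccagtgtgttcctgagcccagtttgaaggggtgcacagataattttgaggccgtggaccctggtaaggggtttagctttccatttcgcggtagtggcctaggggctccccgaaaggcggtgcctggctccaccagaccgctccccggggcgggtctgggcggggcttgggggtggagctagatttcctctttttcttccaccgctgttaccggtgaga

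Adm encodes adrenomedullin, a vasodilator peptide induced by hypoxia in many cell types. The gene (ENSMUSG00000030790) spans 110627661 to 110629820 of chromosome 7, forward strand. It was the rarest of the 9, with 28 and 26 counts in the control mice against 27 and 37 counts in the PND mice. After scaling, both PND mice were above both control mice (1.69 and 2.19 against 1.63 and 1.42 CPM), with PND 1 close to control 1. The log2 fold change of 0.36 (SE 0.31, 95% interval −0.40 to 1.11, adjusted p = 0.45, edgeR) did not pass the test. A rise or fall of this size was not detectable at this depth. Without PND 1 the value was 0.52, and without PND 2 it was 0.16.

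Bhlhe40 (Dec1), a transcriptional repressor of the clock that HIF also induces, had the log2 fold change nearest 0 of the 9 genes before the length and GC correction. The gene (ENSMUSG00000030103) spans 108660629 to 108666925 of chromosome 6, forward strand. Its level was 108 and 103 CPM in the control mice against 104.0 and 103.7 CPM in the PND mice, and the groups overlapped. The log2 fold change was −0.02 with an SE of 0.06, its 95% interval ran from −0.17 to 0.14, and the adjusted p was 0.85 (edgeR). The sign of this value turned when libraries were scaled by their totals alone (0.03) and without control 1 (0.02). With the length and GC correction it was −0.08, beside 0.02 for Epas1.

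Ordered by CPM per kilobase, the control mice had Egln2 (39.4) and Epas1 (36.9) at the top, then Bhlhe40 (22.4), Egln1 (19.4), Vegfa (19.2), Vhl (12.4), Hif1a (5.91), Egln3 (1.73) and Adm (0.941). Egln2 and Epas1 did not differ beyond their spread in the control mice, where Epas1 was 32.9 and 40.9 CPM per kilobase and Egln2 was 38.4 and 40.5, and nor did Egln1 and Vegfa. In the PND mice the order was Epas1 (35.0), Egln2 (25.2), Vegfa (24.1), Bhlhe40 (22.1), Egln1 (21.8), Vhl (14.0), Hif1a (9.92), Egln3 (1.98) and Adm, the rarest. There Egln2 and Vegfa overlapped, as did Bhlhe40 and Egln1. Hif1a had the same place in both orders. Egln2 was below Epas1 in both PND mice, whereas in the control mice it was above Epas1 in control 1 and slightly below it in control 2.

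Across the transcriptome, fold changes moved with the GC content of the transcripts, and the 9 genes span a wide range of it. Spearman's rho between log2 fold change and GC content was −0.64 across 17120 genes, which are not independent replicates. The eighth of genes with the lowest GC content had a median log2 fold change of 0.60 and the eighth with the highest had −0.34. Hif1a, with a GC content of 41.0%, fell in the first of these eighths, and Egln2, with 61.0%, in the last. Egln1 (56.0%) and Vegfa (54.7%) were GC-rich and had values of 0.17 and 0.33, in an eighth whose median was −0.25.

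**Figure D3:**
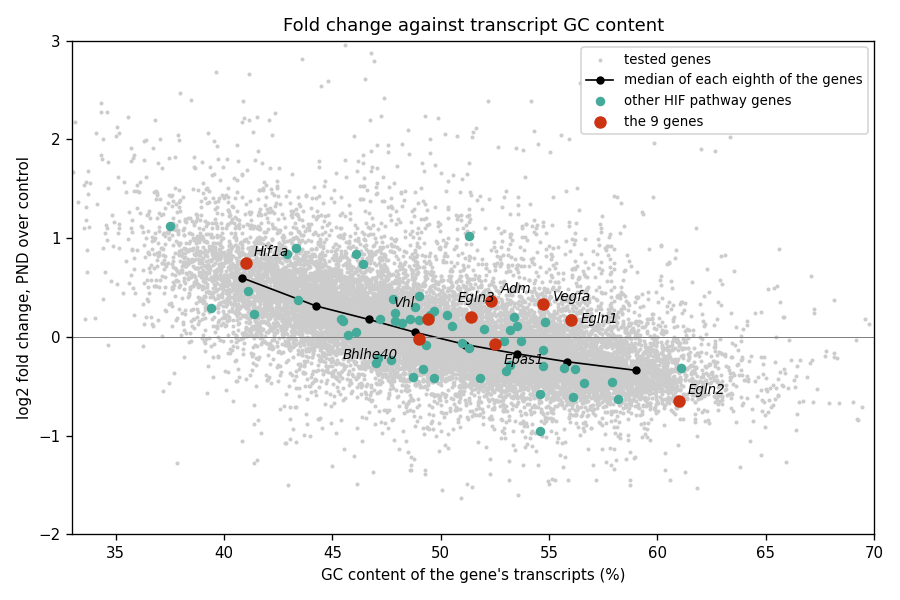
Log2 fold change of PND over control (vertical axis) against the GC content of each gene's transcripts in percent (horizontal axis). Red points are the 9 genes and green points the other HIF pathway genes. Grey points are the genes tested, and those beyond the axis limits are not drawn. The line joins the medians of 8 GC groups, which run from 0.60 down to −0.34. Hif1a (0.75), Egln1 (0.17), Vegfa (0.33), Epas1, Egln3, Vhl and Adm lie above the median of their GC group. Egln2 and Bhlhe40 lie below it.

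When each library's trend with transcript length and GC content was fitted and removed, 1.69% of all genes passed the test (0.584% higher and 1.10% lower) and none of the 9 did, although 3 had an unadjusted p under 0.05 (edgeR). The split of all genes past the test moved from 50.5% higher to 34.6% higher. The correction removes any change that follows length or GC content. A technical trend and a change in expression that follows them cannot be told apart in these libraries. The Hif1a value became 0.20 (SE 0.12, 95% interval −0.07 to 0.48, adjusted p = 0.36), where the range over all alternatives was 6.6e-05 to 0.36. Egln2 kept its direction at −0.32 (SE 0.07, 95% interval −0.49 to −0.15, adjusted p = 0.073), with a range of 1.8e-08 to 0.073. The Vegfa value became larger, at 0.50 (SE 0.10, 95% interval 0.25 to 0.75), with an adjusted p of 0.063 beside a range of 0.0030 to 0.15. The Egln1 value was also larger, at 0.38 (SE 0.08, 95% interval 0.20 to 0.57), with an adjusted p of 0.058 beside a range of 0.0089 to 0.39. After this correction the intervals of Egln1, Egln2 and Vegfa lay away from 0 and that of Hif1a did not. Epas1 changed sign, to 0.02.

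**Figure D4:**
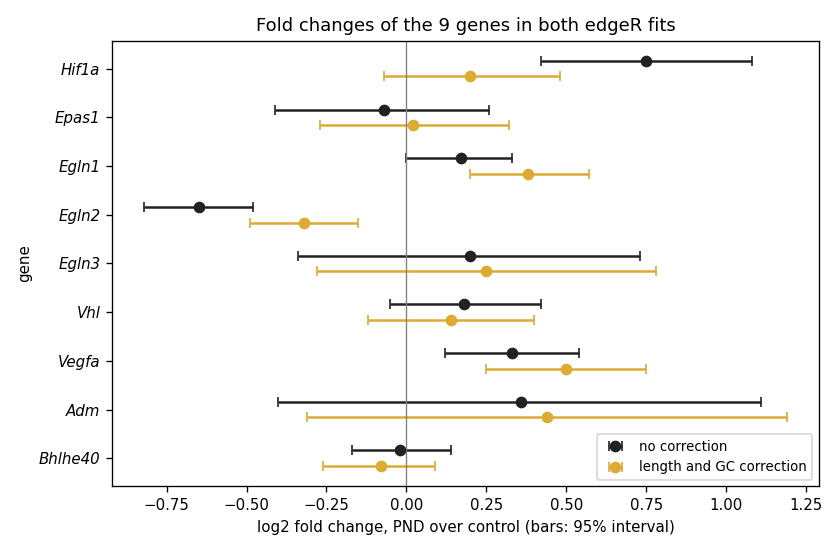
Log2 fold change of PND over control (horizontal axis, bars are 95% intervals) for each of the 9 genes in the fit without and the fit with the correction for transcript length and GC content. Hif1a moved from 0.75 to 0.20, Egln2 from −0.65 to −0.32, Egln1 from 0.17 to 0.38 and Vegfa from 0.33 to 0.50.

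A list of 60 other genes of the pathway, of which 58 were tested, gave the surroundings of these 9. In this list 6 genes rose, 9 fell and 43 did not pass the test, so that 25.9% passed, close to the 26.0% of all genes tested. The median log2 fold change was 0.10. With the correction for length and GC content 1 gene of the list passed, beside 1.69% of all genes tested. That 1 was Pgk1, a glycolytic enzyme named here after its value was seen, at −0.49 (adjusted p = 0.033), and 52.77% of its transcript sequence also occurs in other genes.

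Among the 7 partners and cofactors of HIF, 1 fell and 6 did not pass the test (14.3% past it, beside 26.0% of all genes tested). It was Arnt2, the neuronal β subunit, at 341 and 360 CPM in the control mice against 287 and 288 CPM in the PND mice. Arnt2 changed by a log2 fold change of −0.29 (SE 0.06, adjusted p = 0.015, edgeR), −0.16 after the correction, and the call was lost without control 2 (−0.25, adjusted p = 0.076). The ratio of Arnt2 to Arnt per kilobase was 5.77 and 6.94 in the control mice against 4.38 and 4.36 in the PND mice, which did not overlap. This ratio was not corrected for length and GC content. Arnt itself did not pass the test (0.24, adjusted p = 0.083, edgeR) and was at 0.12 after the correction. The summed neuron markers were 5735 and 5540 CPM in the control mice against 5341 and 5099 CPM in the PND mice, with 1 of 5 markers past the test, downwards, and their part in the Arnt2 value was not tested. Hif3a, the remaining α subunit, did not pass the test and varied between mice of the same group (17.4 and 36.7 CPM against 10.03 and 18.0 CPM, adjusted p = 0.13).

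Among the 7 genes of hydroxylation and degradation, 1 rose, 2 fell and 4 did not pass the test (42.9% past it, beside 26.0%). P4htm, a transmembrane prolyl hydroxylase of the endoplasmic reticulum, fell from 118 and 119 CPM to 80.1 and 73.0 CPM (−0.63, SE 0.07, adjusted p = 0.0046, a DEG), and was at −0.36 after the correction. The elongins B and C, which bind each other in the VHL ligase, moved in opposite directions: Elob fell by 0.47 (SE 0.11, adjusted p = 0.024) and Eloc rose by 0.46 (SE 0.08, adjusted p = 0.0088). After the correction Elob was at −0.24 and Eloc at −0.07. The Elob call was lost without control 2 (−0.44, adjusted p = 0.074) and without PND 2 (−0.31, adjusted p = 0.058), and 5.20% of its transcript sequence also occurs in other genes.

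Of the 8 VEGF ligands and receptors, 1 rose, 1 fell and 6 did not pass the test (25.0% past it, beside 26.0%). Flt1, the receptor VEGFR1 of endothelial cells, rose from 68.3 and 72.7 CPM to 85.9 and 100.8 CPM (0.41, SE 0.09, adjusted p = 0.024, and 0.35 after the correction). Its call was lost without control 1 (0.36, adjusted p = 0.076) and without PND 2 (0.29, adjusted p = 0.075). Flt1 is also 1 of the 7 endothelial markers, 2 of which rose, and whose sum was 227.9 and 239.1 CPM in the control mice against 246.6 and 337.3 CPM in the PND mice. Vegfb, a VEGF ligand with little part in vessel sprouting, fell from 54.2 and 56.1 CPM to 46.1 and 42.2 CPM (−0.32, SE 0.08, adjusted p = 0.033). It was at 0.00 after the correction, and the call was lost without control 1 (−0.35), without control 2 (−0.30) and without PND 2 (−0.25).

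Of the 5 genes tested among the receptors of adrenomedullin and their relatives, 1 rose, 2 fell and 2 did not pass the test, a share past it of 60.0% beside 26.0% of all genes tested. All 3 were DEGs, beside 6.75% higher and 2.25% lower DEGs among all genes tested. None of the 5 passed after the length and GC correction. Calcrl, the receptor shared by adrenomedullin and CGRP, held 63 and 74 counts in the control mice against 125 and 150 counts in the PND mice, and rose 2.17-fold (1.12, SE 0.19, adjusted p = 0.010). Its GC content was 37.5%, and the corrected value was 0.27 (adjusted p = 0.48, the highest over its alternatives). Of the 3 accessory proteins that give Calcrl its ligand preference, Ramp1 and Ramp2 fell and Ramp3 did not pass the test (−0.32, adjusted p = 0.45, with overlapping groups). Ramp1 went from 70.5 and 63.1 CPM to 46.0 and 43.4 CPM (−0.58, SE 0.09, adjusted p = 0.0068) and Ramp2 from 34.4 and 35.1 CPM to 19.6 and 25.8 CPM (−0.61, SE 0.14, adjusted p = 0.023). After the correction Ramp1 was at −0.41 and Ramp2 at −0.40. Ramp1, at 0.669 of the control level, was barely a DEG. It left the DEG range without control 1 (−0.50) and without PND 2 (−0.53), and Ramp2 left it without PND 1 (−0.44). The Ramp2 call was lost without control 2 (−0.60, adjusted p = 0.067), and 29.48% of its transcript sequence is shared with Vps25, which it overlaps.

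Of the 31 other hypoxia-induced genes tested, 3 rose, 3 fell and 25 did not pass the test (19.4% past it, beside 26.0%). Ero1a, an oxidase of protein folding, rose from 25.5 and 24.9 CPM to 44.5 and 46.0 CPM (0.84, SE 0.08, adjusted p = 0.0045, and 0.43 after the correction). P4ha1, which hydroxylates collagen, rose from 42.5 and 33.5 CPM to 69.5 and 57.4 CPM (0.74, SE 0.14, adjusted p = 0.013, and 0.54 after the correction). Both are DEGs. Ldha, which makes lactate from pyruvate, fell from 274 and 284 CPM to 218 and 199.8 CPM (−0.42, SE 0.07, adjusted p = 0.0076, and −0.34 after the correction). Ddit4, a stress-induced inhibitor of mTOR, fell from 65.9 and 76.7 CPM to 50.4 and 53.3 CPM (−0.46, SE 0.09, adjusted p = 0.017, and −0.20 after the correction). The Ddit4 call was lost without control 2 (−0.34, adjusted p = 0.066). The others past the test, named because they complete the count, were the mitophagy receptor Bnip3l (0.37) and Pgk1 (−0.41). Bnip3l was at −0.01 after the correction, and 16.92% of its transcript sequence also occurs in Bnip3l-ps.

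**Figure D5:**
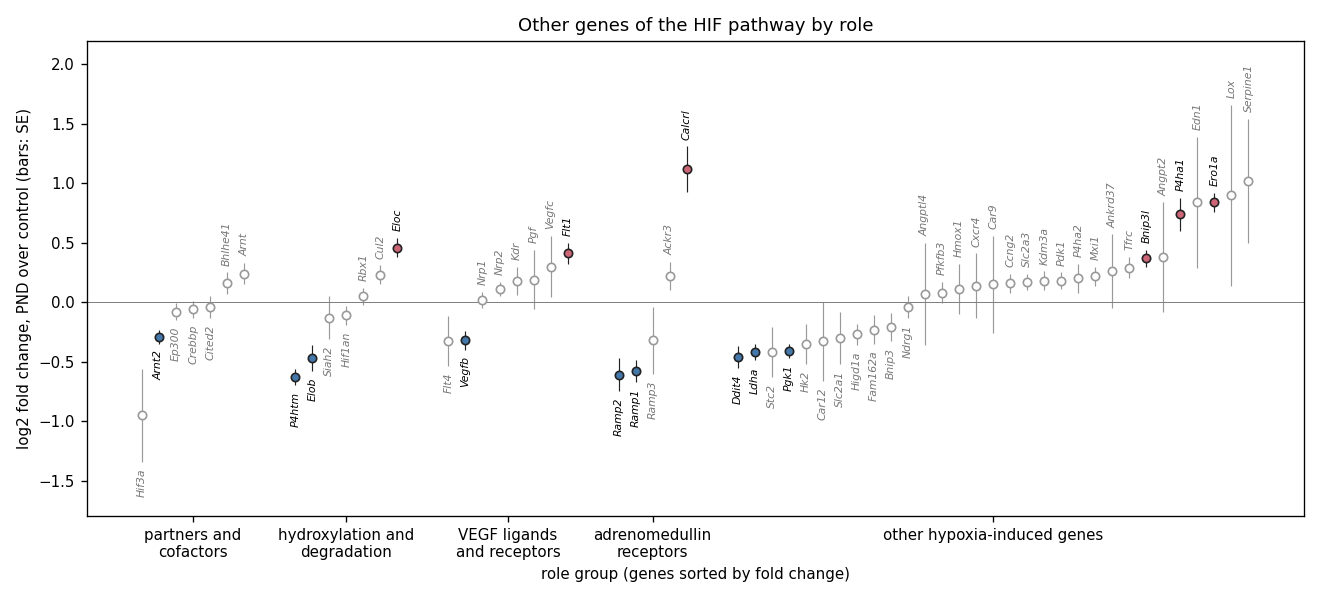
Log2 fold change of PND over control (vertical axis, bars are SE) of the 58 tested genes of the wider list, in their 5 role groups and sorted within each. Filled points are the 6 genes that rose and the 9 that fell, from Calcrl at 1.12 down to P4htm at −0.63, and open points are the 43 that did not pass the test.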

How the data were processed

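The authors enriched poly(A) RNA, made 150 nt paired-end reads, used HISAT on mm10, and deposited unnormalized counts of reads per gene for each mouse. The submitters' processing notes name HISAT2 2.1.0, Bowtie2 2.2.3, TopHat2 and HTSeq 0.6.0 without their roles. The use of strand in counting is not given in the sources used here. The authors' own comparison columns (fold changes and p-values) were not used. Each per-sample column was assigned to its mouse by name.

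edgeR 4.0.16 in R 4.3.3 was applied to the counts: filterByExpr at a minimum count of 10, TMM, the quasi-likelihood F test on condition alone and Benjamini-Hochberg adjustment over all 17144 genes tested. The paper names no test for these counts. Its folds marked DEGs. CPM used TMM-scaled totals. Length and GC trends were fitted with mgcv 1.9.3 (basis size 8) and entered as offsets, from GENCODE transcripts of mm10. Coordinates are those of the deposited table. limma 3.58.1 (voom) and DESeq2 1.42.0 were alternatives. Replicates differed by more than sampling noise, and the spread between mice includes technical spread. All 9 genes and, of each other role group, up to 4 genes past the test with the largest changes were named. The genes and lists were chosen with earlier results of these data known. The edgeR and DESeq2 tests were run on simulated counts, and the offsets on simulated counts with a GC trend but no length trend. The term for the replicate number, limma voom and the fits without a mouse were not simulated.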

Additional observations from a re-analysis of the deposited data

How the results depend on the processing

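The 22 named genes kept their direction and their side of the threshold with DESeq2's size factors, DESeq2's test, limma voom, a filter at a mean of 1 CPM and the replicate block, and with scaling by library totals in 21. The replicate numbers are shared by 2 mice each and the labels give them no meaning. The deviations of same-numbered mice from their group means had a correlation of 0.22. With 2 mice in a group these deviations mirror each other, and swapping the numbers in either group would only turn the sign. The value therefore cannot show a pairing. With the replicate block 5279 genes (30.8%), 3 of the 9 and 19 of the wider list passed the test. Without a filter 2665 genes and 10 of the wider list passed, and 6 named genes lost their call. With the length and GC correction 289 genes passed, 0 of the 9 and 1 of the wider list, and 15 named genes lost their call, as did Eloc, which also turned. With both the replicate block and that correction 2351 genes passed (13.7% of those tested), 13 of the wider list and 3 of the 9, which were Egln1 (adjusted p = 0.0089), Egln2 (0.015) and Vegfa (0.0030), while Hif1a was at 0.19 (0.20). In the wider list, Hif3a passed the test with the replicate block (−0.92, adjusted p = 0.0034) and with the block and the correction (adjusted p = 0.0059), Slc2a1 with the block (−0.30, adjusted p = 0.014), and Higd1a (−0.28, adjusted p = 0.039) and Tfrc (0.29, adjusted p = 0.017) with the block. With the block and the correction 3 of the list were higher and 10 lower, among them Higd1a (−0.45, adjusted p = 0.0096), Bnip3 (−0.38, adjusted p = 0.020), Fam162a (−0.39, adjusted p = 0.048) and, turned in direction, Tfrc (−0.38, adjusted p = 0.012). Leaving out each mouse in turn gave 2318 to 4020 genes, 2 to 3 of the 9 and 9 to 18 of the wider list. The direction of Epas1 turned with the correction (0.02), with the block and the correction (0.02) and without a mouse (−0.25 to 0.09). Bhlhe40 turned with library totals (0.03) and without a mouse (−0.06 to 0.02), and Eloc with the correction, alone or with the block (−0.07). Why these values moved was not tested. Counts under 100 in Egln3 and Adm limited their precision, and DESeq2 gave Adm no adjusted p.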

Other observations

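In the wider list, Hif3a, which encodes an α subunit that can restrain HIF, the glucose transporter Slc2a1 and the carbonic anhydrase Car12 were chosen after their values were seen, because they varied between mice of the same group. Hif3a was at 17.4 and 36.7 CPM in the control mice and 10.03 and 18.0 CPM in the PND mice. Slc2a1 was at 109.6 and 163 CPM against 92.0 and 129 CPM, and Car12 at 41.8 and 89.3 CPM against 44.7 and 60.1 CPM. None of Hif3a, Slc2a1 and Car12 passed the edgeR test on condition alone, while Hif3a and Slc2a1 did with the replicate block. Each of these genes was higher in control 2 than in control 1 and in PND 2 than in PND 1. The block takes up such spread, so these calls follow in part from the choice of genes. The summed choroid plexus markers had the same order (122.5 and 5343 CPM against 2001 and 3403 CPM), and their part was not tested.

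Of the wider list, Adm2 (1, 0, 1 and 0 counts in the 4 mice) and Epo (0, 0, 1 and 1 counts) were not tested.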
